A study of Arabidopsis thaliana with 8 samples.

Results

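Gibberellins are diterpenoid hormones that promote germination, stem and root elongation and the expansion of cells. Their level is set by 3 families of soluble oxidases. GA20-oxidases and then GA3-oxidases carry out the last steps towards the active hormone, and GA2-oxidases inactivate it. Active gibberellin binds the receptor GID1, and the complex targets DELLA proteins, which restrain growth, for breakdown. DELLA proteins raise transcripts of the receptor and of some synthesis genes, so that the pathway feeds back on itself. The genes described here are 8 oxidases (GA20ox1, GA20ox2, GA3ox1, GA3ox2, GA2ox1, GA2ox2, GA2ox6 and GA2ox8), the receptor GID1A and the DELLA gene RGA. They were chosen by name, through the first 9 characters of the row identifiers, and all 10 were found among 29920 loci.

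Expression was measured on tiling arrays in Arabidopsis thaliana seedlings at 7 days, grown on vertical plates with sucrose. The root meristemless1 (rml1) mutant was compared with the wild type, Columbia-0. In rml1 the gene GSH1, of glutathione synthesis, is known to carry a lesion, and the primary root stops growing early. There were 3 arrays of rml1 shoots (pools of 61, 65 and 108 shoots), 3 of wild type shoots (30 shoots each), 1 of rml1 roots (234 roots) and 1 of wild type roots (90 roots). The ecotype of the mutant line and its allele are not given in the labels, and no transgene is named. All values are RMA levels of RNA on the log2 scale. A difference of 1 is therefore a 2-fold change, and levels of different genes are not compared, since each gene has its own probes.

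GSH1 (AT4G23100) was between 8.61 and 8.96 in rml1 shoots and between 8.11 and 8.45 in wild type shoots. Its root levels were 8.97 in rml1 and 8.14 in the wild type. It rose in rml1 shoots by 0.54 (SE 0.13, limma adjusted p = 0.0243). The labels do not give the allele, so these levels were not used as a check of genotype. Leaf markers (median of 4 measured genes) were at 12.1 to 12.2 in rml1 shoots, 12.3 in wild type shoots, and at 8.08 (rml1) and 7.69 (wild type) in roots. Markers of the endodermis (median of 5) were at 6.82 (rml1) and 8.62 (wild type) in roots and between 4.67 and 4.88 in shoots. Root hair markers (median of 4) were at 6.72 (rml1) and 6.76 (wild type) in roots, against 3.10 to 3.78 in shoots. The arrays thus followed their organ labels.

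In shoots, rml1 had higher RNA levels of GA2ox6 and GA2ox2, which encode inactivating enzymes, and of the receptor gene GID1A. RNA levels of the synthesis gene GA20ox2 and of GA2ox1 were lower. Only the rises of GA2ox6 and GID1A, both a little under 2-fold, were called under every alternative tried. In roots each genotype has 1 array and no test was made. There the rml1 root was far below the wild type root in RNA of both GA3-oxidases, the enzymes that make the active hormone. Genes of the inactivating enzymes differed in both directions, with GA2ox2 higher and GA2ox1 lower in the rml1 root.

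Of the 10 genes, 5 passed the test in shoots (limma, adjusted p under 0.05 over all loci), 3 up and 2 down. Over all 29920 loci 23.9% passed, 13.3% up and 10.6% down. The rml1 and wild type arrays did not overlap for 8 of the 10 genes, 3 higher and 5 lower in rml1, against 42.1% of all loci (21.9% higher and 20.2% lower). The median log2 fold change was -0.18 over the 10 genes and -0.03 over all loci. In roots 4 of the 10 differed by at least 1 log2 unit, 1 higher and 3 lower in rml1. Over all loci 12.6% did so, 5.25% higher and 7.33% lower.

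**Figure D1:**
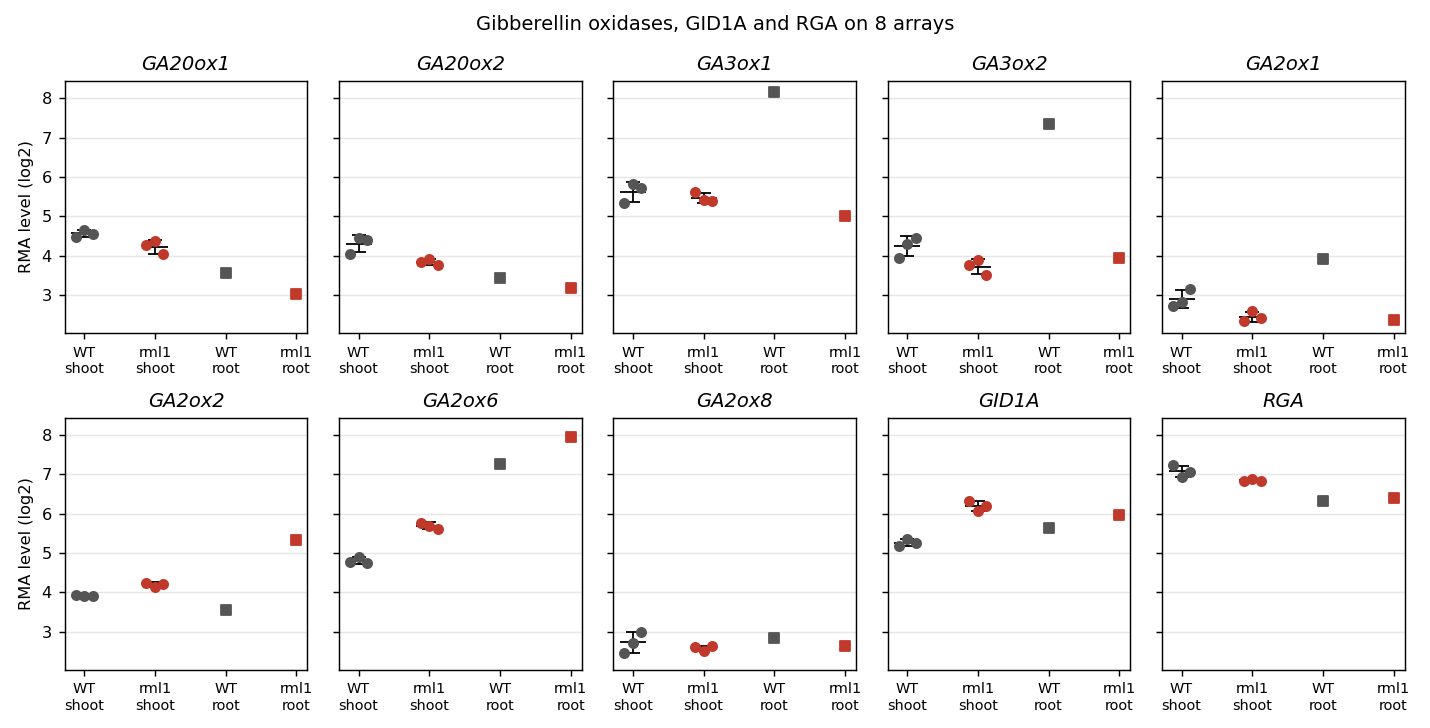
RMA level (log2) of each gene on the 8 arrays, with wild type in grey and rml1 in red, shoots as circles and roots as squares; horizontal marks with bars are the mean and SD of the 3 shoot arrays. The wild type root stands above every other array for GA3ox1 (8.14) and GA3ox2 (7.34), and the 3 rml1 shoot arrays stand above the 3 wild type shoot arrays for GA2ox2, GA2ox6 and GID1A.

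The GA20-oxidases remove a carbon from the gibberellin precursor and make the substrates of the GA3-oxidases. GA20ox1 (AT4G25420), known for its part in stem elongation, had levels of 4.28, 4.38 and 4.04 in rml1 shoots and 4.49, 4.67 and 4.55 in wild type shoots. All rml1 arrays were below all wild type arrays, but the difference of -0.34 (SE 0.12) did not pass in limma (adjusted p = 0.0778). It passed when arrays were quantile-normalized again (adjusted p = 0.0386) and when only loci above the median level were tested (0.0356). In roots GA20ox1 was at 3.03 in rml1 and 3.56 in the wild type, below all shoot arrays.

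GA20ox2 (AT5G51810), which acts partly in place of GA20ox1 and is known to be induced by DELLA proteins, was at 3.84, 3.91 and 3.77 in rml1 shoots. In wild type shoots it was at 4.05, 4.45 and 4.40. The groups did not overlap, and GA20ox2 fell by 0.46 in rml1 (SE 0.12, limma adjusted p = 0.035), a 1.38-fold difference. This call was lost without any 1 array other than wild type replicate 1 (adjusted p of 0.095, 0.0636 and 0.112 with rml1 replicate 1, 2 or 3 left out, and of 0.102 and 0.104 with wild type replicate 2 or 3 left out). The root levels were 3.18 in rml1 and 3.43 in the wild type. Both GA20-oxidases were thus lower in roots than in shoots of either genotype.

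The GA3-oxidases make the active hormone, and GA3ox1 and GA3ox2 are the pair that serves vegetative growth. GA3ox1 (AT1G15550) was at 5.62, 5.41 and 5.40 in rml1 shoots and at 5.33, 5.82 and 5.72 in wild type shoots. These groups overlapped, and the difference of -0.14 (95% interval -0.49 to 0.20, limma adjusted p = 0.517) did not pass. In the root the level was 5.01 in rml1 and 8.14 in the wild type. The root difference was -3.14, or 8.80-fold, and 100 of all loci had a larger negative difference. The wild type root was 2.52 log2 units above the mean of wild type shoots, whereas the rml1 root lay below each of the 3 rml1 shoot arrays.

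GA3ox2 (AT1G80340), known from germinating seeds and roots, was at 3.77, 3.90 and 3.51 in rml1 shoots and 3.96, 4.31 and 4.45 in wild type shoots. The rml1 arrays were all lower, by a mean difference of -0.51 (SE 0.16), which missed the threshold in limma (adjusted p = 0.0573). It passed in 5 settings with the same threshold, among them without wild type replicate 1 (adjusted p = 0.0242), with array weights (0.0298) and with only loci above the median level (0.0246). In the root GA3ox2 was at 3.94 in rml1 and 7.34 in the wild type. This difference, -3.40 or 10.5-fold, was the largest among the 10 genes, and 60 of all loci had a larger negative one. The rml1 root was within 0.21 log2 units of the mean of rml1 shoots, while the wild type root was 3.10 above the mean of wild type shoots. GA3ox4 (AT1G80330), which lies next to GA3ox2 in the TAIR10.1 gene order and encodes a related enzyme, had root levels of 2.58 (rml1) and 2.75 (wild type). Both were below the medians of these arrays (3.95 and 3.98), whose lower quartiles were 2.20 and 2.30, so there was little room for a fall.

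**Figure D2:**
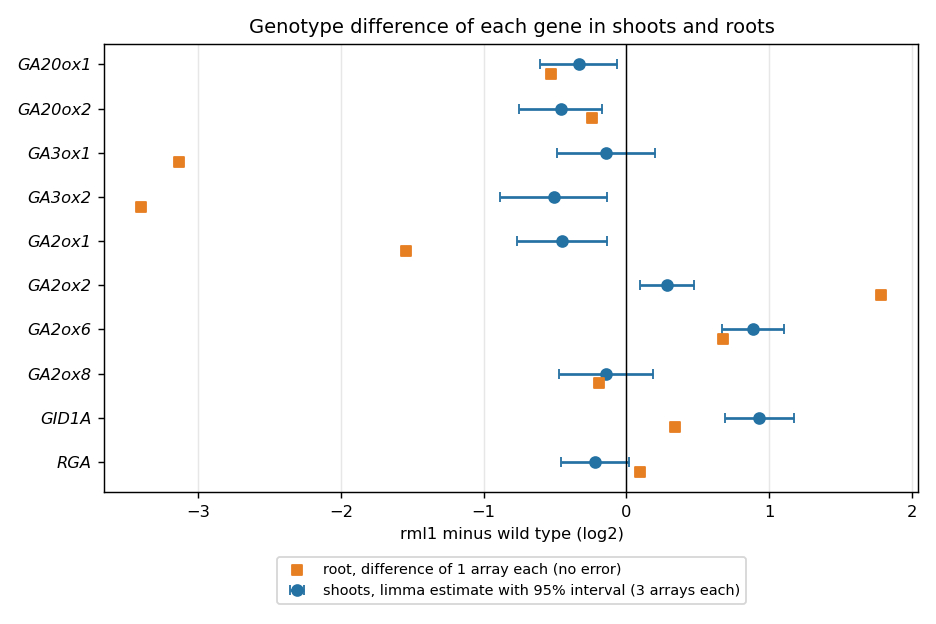
Genotype difference (rml1 minus wild type, log2) of each gene in shoots (blue circles with 95% intervals from limma, 3 arrays each) and in roots (orange squares, 1 array each, no error). The shoot differences lie between -0.51 and 0.93, while the root differences run from -3.40 for GA3ox2 to 1.79 for GA2ox2.

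The GA2-oxidases inactivate gibberellins. GA2ox1, GA2ox2 and GA2ox6 act on the active hormones and their direct precursors, and GA2ox8 acts on earlier precursors. GA2ox6 (AT1G02400) was at 5.77, 5.70 and 5.60 in rml1 shoots and 4.77, 4.90 and 4.75 in wild type shoots. No rml1 array came near the wild type range. GA2ox6 rose by 0.88 (SE 0.09, limma adjusted p = 0.00098), or 1.85-fold, and its adjusted p was 0.00377 to 0.00634 with 1 array left out. Over all loci, 1070 had a larger rise. In roots it was at 7.93 in rml1 and 7.26 in the wild type, above every shoot array, and the root difference was 0.67.

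GA2ox2 (AT1G30040) was at 4.25, 4.14 and 4.21 in rml1 shoots and within 3.90 to 3.92 in wild type shoots. The groups were separate, and GA2ox2 rose by 0.28 (SE 0.08, limma adjusted p = 0.0412), a 1.22-fold change. The call was lost whichever array was left out (adjusted p 0.0611 to 0.138) and when arrays were quantile-normalized again (0.0502). The rml1 root, at 5.34, had the highest level of the 8 arrays, and the wild type root, at 3.56, the lowest. This root difference of 1.79 (3.45-fold) was exceeded by 512 loci.

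GA2ox1 (AT1G78440) was below the median of every array. Its levels were 2.35, 2.59 and 2.41 in rml1 shoots and 2.73, 2.82 and 3.15 in wild type shoots. The groups did not overlap, and GA2ox1 fell by 0.45 (SE 0.13, limma adjusted p = 0.0487), close to the threshold. The call was kept with wild type replicate 1 left out (0.0413) and lost without any other array (0.142, 0.0584 and 0.136 for rml1 replicates 1, 2 and 3, and 0.0825 and 0.107 for wild type replicates 2 and 3). It was also lost with quantile normalization (0.0794) and with a robust, trended eBayes fit (0.0535). The wild type root, at 3.92, was above all other arrays, and the rml1 root, at 2.38, was within the range of rml1 shoots, a root difference of -1.55 (2.92-fold).

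GA2ox8 (AT4G21200) was also below the median of each array. It was at 2.61, 2.53 and 2.64 in rml1 shoots, 2.47, 2.72 and 2.999 in wild type shoots, and, in roots, at 2.65 in rml1 and 2.84 in the wild type. The shoot groups overlapped (difference -0.14, 95% interval -0.47 to 0.19, limma adjusted p = 0.509). No difference of 1 log2 unit was seen for this gene in either organ. The GA2-oxidases did not share 1 direction. GA2ox6 and GA2ox2 rose in shoots and were higher in the rml1 root as well, while GA2ox1 fell in shoots and was lower in that root.

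The levels of GID1A (AT3G05120), a gibberellin receptor whose gene is known to be induced by DELLA proteins, were 6.33, 6.07 and 6.19 in rml1 shoots. They were 5.18, 5.36 and 5.25 in wild type shoots. The groups were clearly separate, and GID1A rose by 0.93 (SE 0.10, limma adjusted p = 0.00116), or 1.90-fold. Its adjusted p stayed between 0.00324 and 0.00726 with 1 array left out. The root levels, 5.97 in rml1 and 5.64 in the wild type, differed by 0.34.

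RGA (AT2G01570) encodes a DELLA protein that is controlled largely by protein breakdown, which arrays do not measure. It was at 6.84, 6.89 and 6.83 in rml1 shoots and 7.22, 6.93 and 7.06 in wild type shoots. The rml1 arrays were all lower, but the difference of -0.22 (95% interval -0.46 to 0.02) did not pass in limma (adjusted p = 0.163). In roots RGA was at 6.41 in rml1 and 6.31 in the wild type.

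**Figure D3:**
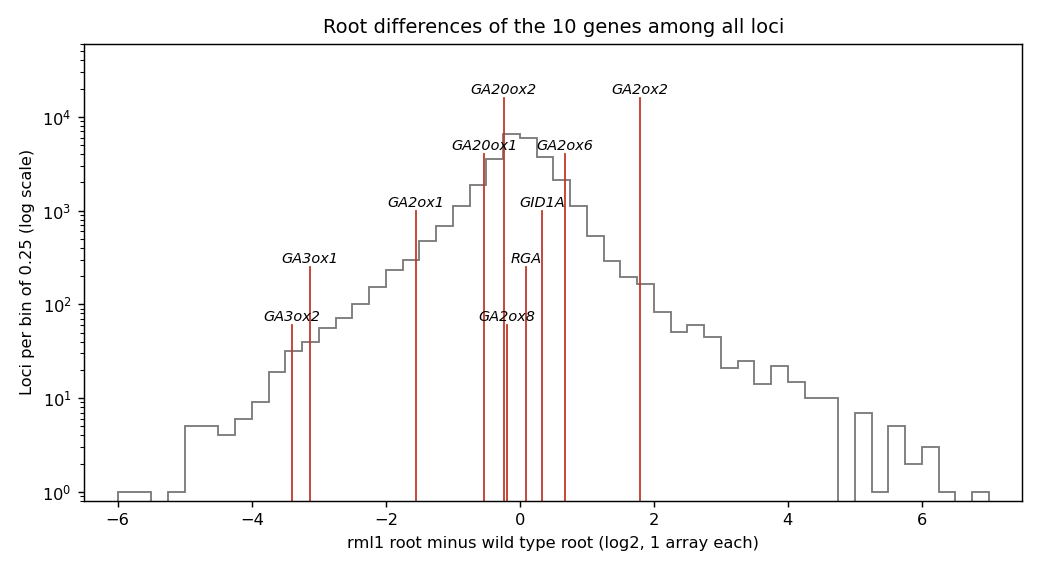
Number of loci (log scale) by root difference, rml1 minus wild type (log2, 1 array each, bins of 0.25), with the 10 genes as red lines whose height only separates the labels. GA3ox2 and GA3ox1 lie in the far left tail, with 60 and 100 loci beyond them, and GA2ox2 lies to the right, with 512 loci beyond it.

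Markers of single cell types also differed between the roots. Of 5 endodermis markers, 4 were lower by at least 1 log2 unit in the rml1 root and MYB36 was 0.87 higher. Of the root hair markers 1 of 4 was lower by at least 1 log2 unit, COBL9 (-1.29). EXPA7 (-0.99) and EXPA18 (-0.85) were also lower in the rml1 root, and RHD6 was 0.77 higher. Of the leaf markers 1 of 4 was higher by at least 1 log2 unit. In shoots 1 of 5 endodermis markers passed (CASP1, up by 0.57), while 0 of 4 leaf and 0 of 4 root hair markers did in limma. At an unadjusted p under 0.05 there were 3 endodermis markers, all with higher means in rml1 (MYB36 by 0.69 and ESB1 by 0.64 besides CASP1), 1 leaf marker and 0 root hair markers. Over all 29920 loci, 10805 had an unadjusted p under 0.05 in the same limma fit. The leaf marker medians were 12.1 to 12.2 in rml1 and 12.3 in wild type shoots. The part of these shifts in the results was not tested. In such bulk samples a lower share of the cells that express a gene cannot be told apart from less of its RNA in each cell. The difference between shoots and roots in the size of the genotype effect was not tested either, since the root has 1 array per genotype.

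The rest of the pathway was read from 10 lists with 60 genes, all of them measured. Of these, 18 rose and 7 fell in rml1 shoots, 30% and 11.7%, against 13.3% and 10.6% of all loci. Counted over the families, 2 of 16 gibberellin oxidases rose, 3 fell and 11 did not pass. The fall outside the 8 oxidases above was that of GA3ox3 (AT4G21690), an enzyme known from flowers, which was at 3.15 to 3.35 in rml1 and 3.57 to 3.67 in the wild type (log2 fold change -0.36, SE 0.09, limma adjusted p = 0.0266). GA2ox4 (AT1G47990) was the only one of these 8 other oxidases with a root difference of at least 1, at 3.74 in rml1 and 2.54 in the wild type. Over all loci 12.6% differed by as much, and both levels lay below the medians of their arrays (3.95 and 3.98).

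Of 5 genes of early synthesis, the enzymes that lead from the diterpene precursor to the first gibberellin, 1 rose and 4 did not pass. GA3 (AT5G25900), the ent-kaurene oxidase, rose by 0.41 (SE 0.09, limma adjusted p = 0.0197). The cyclases GA1 and GA2 and the oxidases KAO1 and KAO2 had differences between -0.12 and 0.05. Of 4 other inactivating enzymes 0 passed in limma and 2 had an unadjusted p under 0.05, as did 10805 of all 29920 loci. Of the 4, 1, ELA1, had a root difference past 1 log2 unit (3.50 in rml1 and 4.52 in the wild type). Over all loci 12.6% differed by at least 1 log2 unit.

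All 3 receptor genes rose in rml1 shoots. GID1B (AT3G63010) was at 6.40, 6.18 and 6.46 in rml1 and 5.33, 5.56 and 5.35 in the wild type, a rise of 0.93 (SE 0.11, limma adjusted p = 0.0016). GID1C (AT5G27320) rose by 0.47 (SE 0.11, adjusted p = 0.0242). In roots GID1B was at 8.06 in rml1 and 7.20 in the wild type, and GID1C differed by 0.11. Of the 5 DELLA genes, 1 passed, RGL1 (AT1G66350), which rose by 0.99 (SE 0.17, adjusted p = 0.00557), from 4.11 to 4.71 in the wild type to 5.25 to 5.42 in rml1. GAI, the closest relative of RGA, had a difference of 0.31 (SE 0.10, adjusted p = 0.0539), and so did not pass, like RGA.

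Among the proteins that act on DELLA proteins, SLY1, the F-box protein that marks them for breakdown, rose by 0.44 (SE 0.08). SPY and SEC, enzymes that attach sugars to them, rose by 0.41 (SE 0.10) and 0.44 (SE 0.08). SNE, of the same list, did not pass (difference -0.10, SE 0.17, limma adjusted p = 0.723). In the rml1 root SLY1 (-0.31) and SNE (-0.79) were lower, and SPY (0.67) and SEC (0.89) were higher. In the list of receptors, DELLA genes and turnover outside the 10 genes, 6 of 10 rose and 4 did not pass. Of 3 gibberellin transporters 2 rose, SWEET13 by 1.35 (SE 0.13) and NPF3 by 0.57 (SE 0.09). SWEET13, which also carries sucrose, was lower in the rml1 root, at 3.89 against 5.65.

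Genes known to respond to gibberellin or DELLA proteins moved in both directions. Of 5 listed genes known to be induced by DELLA proteins, 3 rose, 1 fell and 1 did not pass. GID1A, which rose, and GA20ox2, which fell, are not among these 5. IQD22 (AT4G23060) had the largest rise of all 60 genes, from 5.53 to 6.05 in the wild type to 8.19 to 8.50 in rml1 (log2 2.69, SE 0.17, limma adjusted p = 0.000222), or 6.45-fold. SCL3, a GRAS protein that promotes gibberellin responses, rose by 0.85 (SE 0.11), and XERICO, a RING protein linked to abscisic acid, rose by 0.83 (SE 0.10). In contrast bHLH137 fell by 0.57 (SE 0.10).

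Among 8 GASA genes, which encode small cysteine-rich peptides, 2 rose, 2 fell and 4 did not pass. GASA1 (AT1G75750) was at 7.69, 7.95 and 7.96 in rml1 shoots and 11.1, 10.8 and 10.9 in wild type shoots, and fell by 3.02 (SE 0.12, limma adjusted p = 8.42e-05), an 8.14-fold difference. GASA9 fell by 1.75 (SE 0.23), GASA4 rose by 1.50 (SE 0.15) and GASA14 rose by 0.69 (SE 0.20). In roots 4 of the 8 were higher in rml1 by at least 1 log2 unit, against 5.25% of all loci, led by GASA5, at 7.07 against 4.24. Another of them, GASA3, was at 3.27 against 0.96, and this wild type level lay below the lower quartile of its array (2.30). GASA1, GASA2 and GASA4, by contrast, were lower in the rml1 root, with differences of -0.87, -0.82 and -0.80.

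The PRE genes encode small helix-loop-helix proteins that promote elongation. Of 6, PRE1 and PRE2 fell by 1.39 (SE 0.18) and 0.94 (SE 0.23) in rml1 shoots, PRE6 rose by 1.11 (SE 0.19) and 3 did not pass. In roots PRE3 and PRE4 had the largest differences, at 5.50 in rml1 against 7.81 for PRE3 and 1.41 against 3.99 for PRE4. The rml1 level of PRE4 lay below the lower quartile of its array (2.20). Among 7 DELLA partners and regulators, PIF3, a bHLH factor of light signalling, rose by 1.45 (SE 0.16) in shoots. Its relative PIF4 fell by 0.92 (SE 0.15) and 5 did not pass. In the rml1 root 2 of the 7, PIF3 (1.64) and PIF5 (1.60), were higher by at least 1 log2 unit, against 5.25% of all loci. By that measure 0 were lower, and PIF4 was 0.66 higher. Of 4 KNOX regulators of the shoot meristem, KNAT6 rose by 0.57 (SE 0.13), KNAT1 rose by 0.42 (SE 0.11) and 2 did not pass. In roots KNAT1 was at 7.31 in rml1 and 5.08 in the wild type, and KNAT2 at 5.25 and 3.01.

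**Figure D4:**
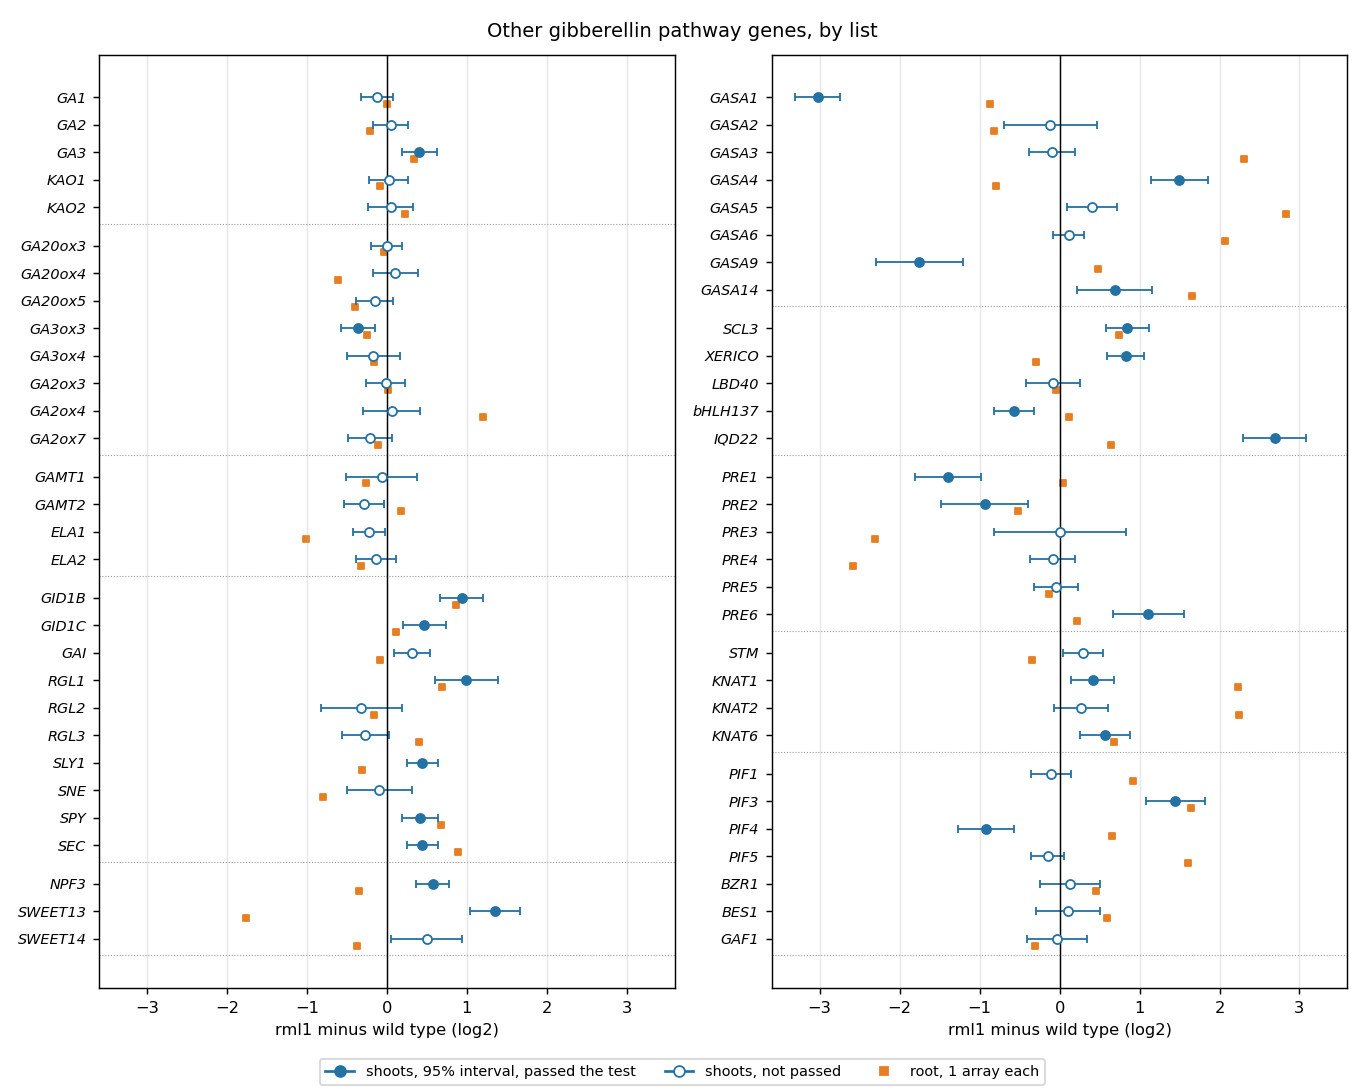
Genotype difference (rml1 minus wild type, log2) of the 60 other pathway genes, grouped by list between dotted lines, in shoots (circles with 95% limma intervals, filled where the test was passed) and in roots (orange squares, 1 array each). In shoots 18 genes rose and 7 fell, from -3.02 for GASA1 to 2.69 for IQD22.

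Of the 25 pathway genes that passed, 17 also passed whichever single shoot array was left out. The other 8 were lost without at least 1 array. Their highest adjusted p values were 0.0615 for KNAT6, which needed wild type replicates 2 and 3, and 0.0744 for PRE2, which needed rml1 replicate 3 and wild type replicates 1 and 2. SPY (0.0738) and KNAT1 (0.124) needed replicates 2 and 3 of both genotypes, and GID1C (0.0838) needed rml1 replicates 2 and 3 and wild type replicates 1 and 3. GA3 (0.0689) and GASA14 (0.14) were lost without any array but wild type replicate 2, and GA3ox3 (0.0924) without any but rml1 replicate 1.

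For each gene that passed, similar profiles were sought among loci whose mean over the 8 arrays lay above the median of all loci. Similarity was the root mean square difference of levels over the arrays, each locus centred on its own mean. The 3 nearest loci were listed. For GID1A, whose own SD over the arrays was 0.45, they were AT1G63010 (0.0531), AT4G17940 (0.0635) and HD2C (0.0918). GA2ox6 (SD 1.18) was nearest to GPT1 (0.0961), a plastid glucose-6-phosphate translocator, followed by PRN (0.152) and AT5G18780 (0.153). GPT1 differed by 0.90 in shoots and 0.74 in roots, close to the 0.88 and 0.67 of GA2ox6.

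GA20ox2 (SD 0.44) was nearest to AT3G62000 (0.0837), PMR6 (0.101) and AT5G14610 (0.103). The nearest profiles of GA2ox1 (SD 0.53) were AT3G16350 (0.132), TRM27 (0.146) and DMP2 (0.152). Those of GA2ox2 (SD 0.53) were AT1G02470 (0.122), AT2G17670 (0.125) and PMH2 (0.129). These last 3 differed by 0.46, 0.06 and 0.49 in shoots, against 0.28 for GA2ox2. Their root differences were 2.06, 1.53 and 1.65, against 1.79. With 8 arrays in 4 groups, many loci can share such a profile, and the list describes these arrays only.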

How the data were processed

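The labels put 8 samples in 4 groups by genotype and organ. The authors deposited log2 values per table entry and array, made with RMA per the submitters' processing notes. RMA corrects for background, normalizes quantiles between arrays and summarises the probes of an entry. The sources used here name neither its version, nor the genome build, nor how probes were assigned. For this reason positions are left out. Signal above background was not analysed here. Precision is limited by how few arrays there are.

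The 30237 entries were averaged to 29920 loci, of which 208 had more than 1 entry. Each of the 10 genes has 1 entry, and 0 of these are identical to another entry. GA2ox2 and GA2ox8 carry the suffix X, whose meaning is not stated. Symbols and gene order came from a RefSeq table of TAIR10.1. A linear model with genotype alone was fitted to the 6 shoot arrays in limma 3.58.1 (R 4.3.3, eBayes). Its two-sided p-values were adjusted over all loci by Benjamini-Hochberg. The fit was also run on simulated data in which 200 loci were changed. It recovered 14 of 50 loci changed by 0.5 log2 units and 48 of 50 changed by 1. Of the 178 simulated loci called, 16 were unchanged ones. Far fewer loci were changed there than were called in the shoots, so these rates need not hold for the measured data. Errors are SDs of arrays or SEs of the log2 fold change. The labels call the shoot samples biological replicates. Roots were only subtracted.

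The members and gene lists were chosen with earlier results of these data known. All members and any list gene could be named, as well as the 3 nearest profiles of each member that passed, among loci above the median level. Alternatives were other normalizations, a filter on low loci, other eBayes options, array weights, a replicate block, single arrays left out, single entries and other thresholds. No sequences were used. Figures were drawn with matplotlib 3.10.9.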

Additional observations from a re-analysis of the deposited data

Results flagged for a closer look

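RGA was lower in all 3 rml1 shoot arrays than in any wild type shoot array, whereas its level in the rml1 root was above that in the wild type root, by 0.0933 log2 units. The difference between the organs was not tested, the shoot difference did not pass in limma, and the root has 1 array per genotype.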

How the results depend on the processing

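The rises of GID1A and GA2ox6 passed in all 15 alternatives tried in shoots, and the direction of each of the 10 genes was kept wherever it was tested. The other 3 calls depended on the setting. Not every alternative was a check: the looser threshold could not lose a call, and each of the 10 genes has only 1 entry. Thresholds, eBayes options, the block, the filter and single entries also leave these estimates unchanged, so they could not change a direction. Of the 10 genes, 3 passed with a robust, trended eBayes fit (1 of them down, with 7460 of all loci called against 7138 in the reported fit), 2 at an adjusted p under 0.01 (0 down in limma, 4 down at an unadjusted p under 0.05), and 4 were down at an adjusted p under 0.1, where 4316 of all loci were down against 3168. With 1 array left out, 2 to 5 of the 10 passed, with 0 to 3 down in limma (2 to 5 down at an unadjusted p under 0.05), and all loci called numbered 4508 to 6480 (2526 to 3549 up and 1982 to 2931 down), the lowest without rml1 replicate 3. At an adjusted p under 0.01, 3583 loci passed, 2063 up and 1520 down. In the reported limma fit 10805 of all 29920 loci had an unadjusted p under 0.05, counted in either direction. The share of loci down at that p is not given here for any setting. The unadjusted counts of members down therefore cannot be set against all loci. With the replicate number as a block, 2 of the 10 passed in limma (0 down, 4 down at an unadjusted p under 0.05), 5189 of all loci were called, and 19 of the 25 pathway genes kept their call. Deviations of same-numbered arrays correlated at -0.03, -0.003 and -0.10 (Pearson's r over loci), so no pairing by number was seen over all loci. This cannot exclude pairing at single loci, and whether a call lost under the block was a weaker effect was not tested. The filter on low loci left 8 of the 10 genes in the test and took out GA2ox1 and GA2ox8, so it gave no value for them. Some settings leave fewer arrays or loci, and the cause of these changes was not tested. Of the 35 pathway genes that did not pass, 16 changed sign in at least 1 alternative and 4 passed in at least 1. The root differences of the 10 genes kept their sign under other normalizations, and those of GA3ox1 and GA3ox2 stayed within -3.16 to -3.10 and -3.40 to -3.36. Members that differed by at least 1 log2 unit in roots numbered 4 in each.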
